A study of Mus musculus with 2 samples.

Results

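The genes described here encode the lysosome of activated CD4+ T cells: its cathepsins and other proteases, its glycosidases and lipid hydrolases, its membrane proteins, the transcription factor Tfeb and the proton pump, called v-ATPase, that acidifies it. They were chosen by name, as 35 listed symbols together with every symbol that begins with Atp6v0 or Atp6v1, through probe sets whose annotation gives that symbol alone. Of the listed symbols 33 were measured, and 17 pump symbols were found, which made 50 of the 11807 genes measured. Neu1 and Cd63 were not analysed here.

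Gene expression was measured on 2 microarrays of mouse cells. The cells were naive CD4+ T cells of female C57BL/6J mice, taken from the spleen and lymph nodes, cultured for 60 h with plate-bound antibodies that engage CD3 and CD28. To one culture recombinant mouse IL-27, a cytokine of the IL-12 family, was added at 25 ng/ml, and the other received none. Their arrays are called the IL-27 array and the untreated array after their labels. Each group was 1 array, so no test, standard error or p-value is given, and a difference between the arrays cannot be told apart from the variation between cultures.

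Intensities are RMA values on a linear scale, and a difference is log2 of the intensity on the IL-27 array minus log2 of that on the untreated array. A gene was read by its probe set with the highest mean log2 intensity. A gene counted as above background when either array exceeded an intensity of 27.3, the 95th percentile of 41 genes of other tissues, and 6731 genes did so. Arrays of this kind do not separate fewer expressing cells from less RNA per cell.

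Some genes known to be induced by IL-27 were lower on the IL-27 array, and these were picked with earlier results known. Socs3, which feeds back on STAT3 signalling, had intensities of 185.8 on the IL-27 array and 1122 on the untreated array. Prdm1 stood at 16.5 on the IL-27 array, below background, and 189.8 on the untreated array, and Il10 at 10.7 on the IL-27 array, also below background, and 47.2 on the untreated array. Tbx21 was slightly lower, at 349.0 on the IL-27 array and 408.0 on the untreated array, and Irf1 lay the other way, at 794.3 on the IL-27 array and 628.5 on the untreated array. These values do not settle whether the labels or columns of the 2 arrays were exchanged, and if they were, the sign of every difference given here would turn. T cell identity genes were present on both arrays, with 9 of 9 measured markers above background at 395.4 to 4138 on the IL-27 array and 342.5 to 4612 on the untreated array. Macrophage, B cell and granulocyte markers were below background on both arrays, in 14 of 14, 8 of 8 and 9 of 9 measured genes.

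The lysosome is the acidic compartment in which cells digest protein, lipid and carbohydrate. Its enzymes work at low pH, which the v-ATPase maintains by coupling ATP hydrolysis in its cytosolic V1 sector to proton transport through its membrane V0 sector. Many lysosomal genes carry, near their start, an element with the core CACGTG to which TFEB binds, and TFEB is held in the cytoplasm when mTORC1 is active on the lysosomal surface. In T cells, lysosome-related granules also hold the cytotoxic proteins, some of which are activated by a cathepsin.

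That element can be read directly in promoters of the genes that follow. Windows from 250 bases before to 50 bases after a gene's start were available from RefSeq (GRCm38.p6) for 36 of the 43 lysosomal genes above background. CACGTG, which reads the same on both strands, was found in 13 of these genes (36.1%), against 12.8% of 5552 genes above background and 8.09% of all 27025 genes in the table. The longer form, CACGTG preceded by GT and followed by AC, occurred in 1 of them (2.78%), Cln3. It occurred in 0.847% of genes above background and 0.37% of all genes. Both strands were searched. TTCNNNGAA, the form of a STAT site, was found in 3 lysosomal genes (8.33%), against 8.38% of genes above background and 9.55% of all genes. A pair of GAAA copies 2 bases apart, the form of an interferon response element, was found in 3 (8.33%). The shares for that pair were 3.87% of genes above background and 3.99% of all genes. A match describes these letters only and is no evidence of binding.

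The 250 bases before the start are shown for 6 genes to which the values below return: the 3 genes Smpd1, Ctsa and Ctsd, which were lower on the IL-27 array, Ctss, which was higher, and Lamp1 and Cln3 as genes with the clearest elements. Capitals mark CACGTG in Ctsa, Ctsd and Lamp1, its longer form in Cln3 and the paired GAAA copies in Ctss. Matches to the other motifs in these genes are left in lower case. Smpd1 held none of the 4 motifs. Positions are counted from the gene's start, with -1 the base just before it.
Smpd1, chr7:105554110-105554359, plus strand: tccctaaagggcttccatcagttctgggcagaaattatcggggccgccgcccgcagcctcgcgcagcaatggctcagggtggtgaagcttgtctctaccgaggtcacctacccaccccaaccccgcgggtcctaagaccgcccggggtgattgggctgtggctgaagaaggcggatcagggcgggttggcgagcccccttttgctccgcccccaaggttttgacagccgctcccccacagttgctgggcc
Ctsa, chr2:164833523-164833772, plus strand: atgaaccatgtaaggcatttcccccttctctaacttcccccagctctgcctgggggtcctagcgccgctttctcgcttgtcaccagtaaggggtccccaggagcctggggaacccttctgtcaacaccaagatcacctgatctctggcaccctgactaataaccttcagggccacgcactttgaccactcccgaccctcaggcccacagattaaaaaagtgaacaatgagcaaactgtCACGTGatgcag
Ctsd, chr7:142387828-142388077, minus strand: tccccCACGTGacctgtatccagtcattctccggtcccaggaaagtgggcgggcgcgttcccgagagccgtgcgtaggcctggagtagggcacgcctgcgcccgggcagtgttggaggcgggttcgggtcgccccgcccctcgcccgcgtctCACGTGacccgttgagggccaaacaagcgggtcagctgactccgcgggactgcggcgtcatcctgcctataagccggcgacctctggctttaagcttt
Ctss, chr3:95526536-95526785, plus strand: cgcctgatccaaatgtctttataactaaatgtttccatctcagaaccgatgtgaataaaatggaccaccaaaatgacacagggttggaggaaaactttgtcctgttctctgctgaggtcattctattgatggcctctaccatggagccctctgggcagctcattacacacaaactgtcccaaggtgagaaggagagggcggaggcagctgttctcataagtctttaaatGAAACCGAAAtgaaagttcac
Lamp1, chr8:13158911-13159160, plus strand: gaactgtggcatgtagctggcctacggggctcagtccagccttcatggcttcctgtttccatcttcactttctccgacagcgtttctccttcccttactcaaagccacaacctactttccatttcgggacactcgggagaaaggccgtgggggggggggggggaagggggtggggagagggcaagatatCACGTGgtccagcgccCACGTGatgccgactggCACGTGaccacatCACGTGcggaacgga
Cln3, chr7:126583237-126583486, minus strand: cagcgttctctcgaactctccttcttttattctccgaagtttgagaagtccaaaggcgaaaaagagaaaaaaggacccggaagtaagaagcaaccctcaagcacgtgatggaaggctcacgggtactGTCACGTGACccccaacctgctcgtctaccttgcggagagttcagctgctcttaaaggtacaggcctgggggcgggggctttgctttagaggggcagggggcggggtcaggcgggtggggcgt
Lamp1 held 4 copies of CACGTG within its last 61 bases, beginning at -61, -45, -28 and -15. Ctsd held copies beginning at -245 and -98, and Ctsa, in 1 of its 2 windows, held copies beginning at -12 and, beyond the part shown, at 6. In Cln3, also in 1 of 2 windows, the long form began at -123. The same window held, unmarked, a further CACGTG beginning at -149 and TTCNNNGAA beginning at -221. Lamp1 held, also unmarked, paired GAAA copies on the opposite strand, beginning at -135. The match in Ctss began at -21.

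Most lysosomal genes differed little between the arrays, and more of them lay on the lower side than on the higher. All 43 genes above background were above it on both arrays. Of these, 31 (72.1%) were lower by any amount on the IL-27 array, against 47.3% of all genes above background, and 12 were higher, against 52.4%. The median difference was -0.21, against 0.02 for all genes. Large differences were few: 1 of the 43 was at least 2-fold lower, where 2.75% of all genes were, and 0 were 2-fold or more higher, where 1.53% were. With a limit of 1.5-fold, 4 were lower, against 7.29% of all genes, and 0 were higher, against 5.18%. The lower lean was thus made of small differences, and the share of lysosomal genes past either fold on the lower side was near that of all genes. Over all 50 measured genes, those below background included, 35 were lower and the median was -0.15.

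**Figure D1:**
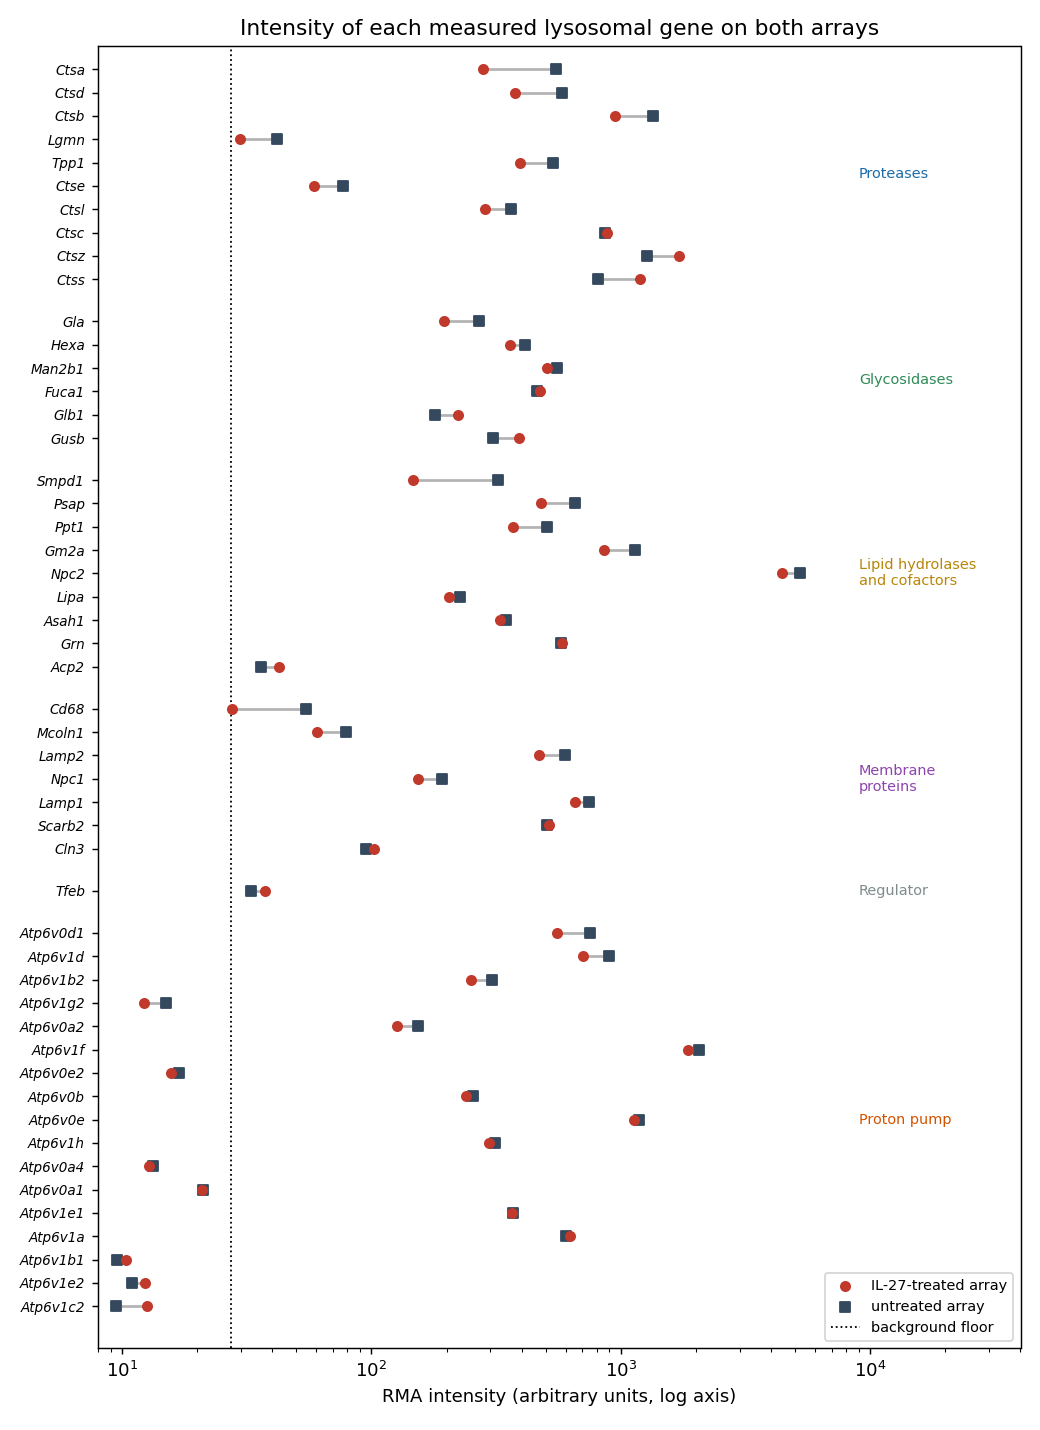
RMA intensity (log axis) of each of the 50 measured lysosomal genes on the IL-27 array (red circles) and the untreated array (dark squares), grouped by role, with the background floor of 27.3 as a dotted line. Most pairs lie close together, Smpd1, Cd68 and Ctsa are the widest pairs above the floor, and 7 pump genes lie left of it on both arrays.

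Proteases were the group with the widest spread, with 7 of 10 lower on the IL-27 array and 3 higher. Cathepsins cut proteins at acid pH and also process precursors, such as granzymes and the class II invariant chain. The protease median was -0.42.

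Ctsa encodes a serine carboxypeptidase that also stabilises beta-galactosidase and neuraminidase in a complex. Its intensity was 280.1 on the IL-27 array and 547.1 on the untreated array, which is 1.95-fold lower and just short of 2-fold. Ctsd, the main aspartic protease of lysosomes, stood at 376.9 on the IL-27 array and 579.8 on the untreated array, 1.54-fold lower. Both genes are read by a single probe set, so no other probe set could be set beside them. Ctsb, a cysteine protease, had intensities of 945.1 on the IL-27 array and 1350 on the untreated array. Its difference was -0.51 by that probe set and -0.64 by a dimmer one, while 2 further probe sets were below background. Ctsb was therefore lower by both readings, although only the dimmer one passed 1.5-fold.

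Tpp1, a tripeptidyl peptidase, differed by -0.44, and by -0.57 by its other probe set. Ctsl, a cysteine protease, and Ctse, an aspartic protease of endosomes, differed by -0.34 and -0.39. Lgmn, an asparaginyl endopeptidase that activates several cathepsins, was dim on both arrays, with intensities of 29.8 on the IL-27 array and 42.0 on the untreated array, and differed by -0.50.

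Ctss and Ctsz lay on the other side. Ctss encodes the cysteine protease that trims the invariant chain in antigen-presenting cells. It had intensities of 1190 on the IL-27 array and 813.3 on the untreated array, a 1.46-fold difference and the largest positive one of the 43 genes. Ctsz, a carboxypeptidase, stood at 1713 on the IL-27 array and 1276 on the untreated array, 1.34-fold higher. Its 3 probe sets differed by 0.42, 0.62 and 0.31 and so were all on the higher side, whereas Ctss has 1 probe set. Ctsc, the dipeptidyl peptidase that activates granzymes, had nearly equal intensities of 883.3 on the IL-27 array and 864.8 on the untreated array.

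Cells other than T cells could carry Ctss, which macrophages and B cells express. The 14 macrophage markers were all below background, with summed intensities of 176.2 on the IL-27 array and 179.2 on the untreated array. The 8 measured B cell markers summed to 115.3 on the IL-27 array and 112.7 on the untreated array, with no gene above background. Of 10 measured dendritic cell markers 4 were above background on both arrays, and Itgax, Flt3 and Zbtb46 were not. The list summed to 644.9 on the IL-27 array and 752.2 on the untreated array. Its class II genes above background lay on both sides, with H2-Ab1 at -1.94, H2-Eb1 at 0.81 and the invariant chain gene Cd74 at 1.56. The class II gene H2-Aa was below background on both arrays. Batf3, the remaining marker above background, differed by -0.24. The part of such cells in the value of Ctss was not tested.

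Glycosidases, which remove sugars from glycoproteins and glycolipids, did not lean to one side: 3 of 6 were lower and 3 higher, with a median of -0.05. Gla, alpha-galactosidase A, had intensities of 194.6 on the IL-27 array and 268.8 on the untreated array, a difference of -0.47. Gusb, beta-glucuronidase, stood at 389.6 on the IL-27 array and 307.6 on the untreated array. Its difference of 0.34 was 0.05 by its dimmer probe set. Glb1, the beta-galactosidase that the Ctsa product stabilises, stood at 223.1 on the IL-27 array and 179.6 on the untreated array, a difference of 0.31. The 2 partners of that complex thus lay on opposite sides, Ctsa lower and Glb1 higher. Hexa, the alpha chain of beta-hexosaminidase, the alpha-mannosidase gene Man2b1 and the alpha-fucosidase gene Fuca1 differed by -0.21, -0.14 and 0.04.

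The group of lipid hydrolases and cofactors was lower in 7 of 9 genes, with a median of -0.24. It was drawn broadly and also held the thioesterase gene Ppt1, the acid phosphatase gene Acp2 and the progranulin gene Grn. Acp2 and Grn were the 2 genes on the higher side. Smpd1 encodes acid sphingomyelinase, which releases ceramide from sphingomyelin. It had intensities of 146.3 on the IL-27 array and 322.9 on the untreated array, 2.21-fold lower, and was the 1 lysosomal gene past 2-fold. It is read by 1 probe set. Asah1, the acid ceramidase that breaks down the ceramide so released, differed by only -0.07, with intensities of 328.5 on the IL-27 array and 345.3 on the untreated array.

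Psap is the precursor of the saposins, small proteins that present sphingolipids to their hydrolases. It stood at 476.9 on the IL-27 array and 656.0 on the untreated array, and its 2 probe sets differed by -0.46 and -0.41. Gm2a, the activator that presents ganglioside GM2 to beta-hexosaminidase, stood at 858.2 on the IL-27 array and 1140 on the untreated array, with differences of -0.41 and -0.70. Ppt1, a thioesterase that removes palmitate from proteins, differed by -0.45 and -0.35 by its 2 probe sets. In these 3 genes the probe sets all lay on the lower side, between 1.27-fold and 1.63-fold.

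Npc2 encodes the soluble carrier that hands cholesterol to Npc1. Its intensities were 4422 on the IL-27 array and 5226 on the untreated array, a difference of -0.24. Lipa, the acid lipase of cholesteryl esters, differed by -0.15, the progranulin gene Grn by 0.02 and the acid phosphatase gene Acp2 by 0.24. The brightest probe set of Grn is of a type (suffix _x_at) that can bind related transcripts.

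Membrane proteins of the lysosome were lower in 5 of 7 genes, with a median of -0.32. Lamp1 and Lamp2 encode the abundant glycoproteins that line the membrane. Lamp1 stood at 652.3 on the IL-27 array and 742.1 on the untreated array, a difference of -0.19. Lamp2 stood at 468.2 on the IL-27 array and 598.0 on the untreated array, a difference of -0.35, and its 2 dimmer probe sets gave -0.71 and -0.73. All readings of both genes were thus on the lower side, and the size for Lamp2 depended on the probe set.

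Cd68, which is used as a macrophage marker, was dim, with intensities of 27.5 on the IL-27 array, just above the floor, and 54.9 on the untreated array. Its difference of -0.99 is 1.99-fold and narrowly short of 2-fold. The 14 macrophage markers, which do not include it, were all below background on both arrays. Npc1, the cholesterol exporter, and Mcoln1, a calcium channel of the lysosome, differed by -0.32 and -0.39, and the dimmer probe set of Mcoln1 by -0.13. Scarb2, which carries glucocerebrosidase to the lysosome, and Cln3 differed by 0.03 and 0.11. Scarb2 was the 1 gene whose probe sets above background lay on both sides of 0, at 0.03 and -0.09.

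Tfeb itself was dim and nearly equal, with intensities of 37.4 on the IL-27 array and 32.99 on the untreated array, a difference of 0.18. A transcript level does not report where the protein is in the cell.

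**Figure D2:**
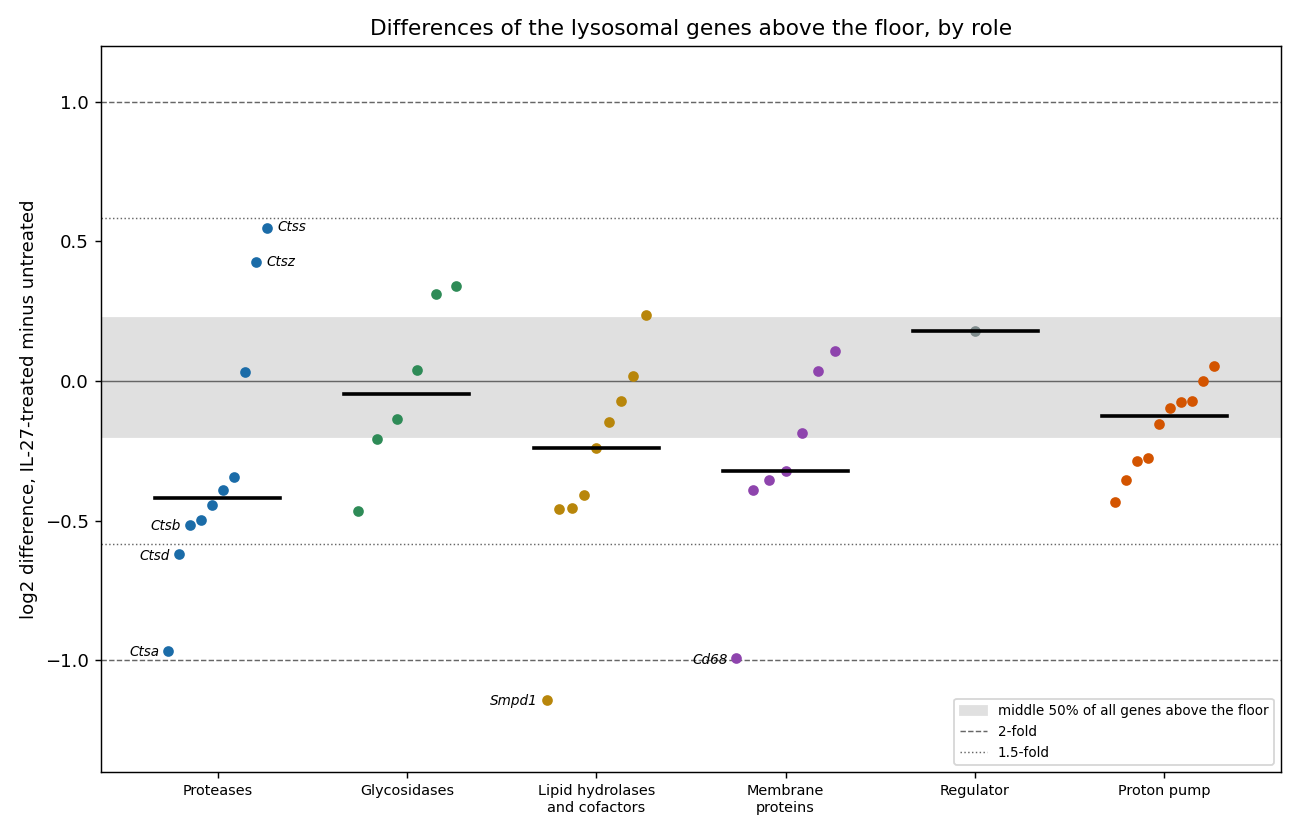
The log2 difference (IL-27-treated minus untreated) of each of the 43 lysosomal genes above background, by role, with the median of each group as a black bar and the middle 50% of all genes above background, from -0.20 to 0.22, as a grey band. Protease, lipid and membrane medians lie below the band at -0.42, -0.24 and -0.32, while those of the glycosidases (-0.05) and the proton pump (-0.13) lie inside it. Without probe sets of the _s_at and _x_at types the membrane median was -0.19 and the pump median -0.21, so the order of these 2 groups depends on the probe sets used.

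The proton pump was measured through 17 subunit genes, of which 10 were above background. Of these 10, 9 were lower on the IL-27 array and 1 higher, but every difference was small, from -0.43 to 0.05, with a median of -0.13, and 0 passed 1.5-fold in either direction. The 7 genes below background on both arrays were Atp6v0a1, Atp6v0a4, Atp6v0e2, Atp6v1b1, Atp6v1c2, Atp6v1e2 and Atp6v1g2. Several of these are isoforms known from specialised cells, such as Atp6v1b1 and Atp6v0a4 of acid-secreting cells of the kidney, Atp6v1e2 of testis and Atp6v1g2 of neurons. The broadly expressed isoforms Atp6v1b2 and Atp6v1e1 were above background. Atp6v0c, Atp6v1c1 and Atp6v1g1 were not among the 17 genes. The C and G subunits of V1 were therefore read only by Atp6v1c2 and Atp6v1g2, and the pump was not fully covered.

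In the V1 sector, Atp6v1a, the catalytic A subunit, had intensities of 625.2 on the IL-27 array and 602.5 on the untreated array. Its 2 probe sets differed by 0.05 and 0.22, and it was the 1 pump gene on the higher side. Atp6v1b2, the B subunit that pairs with it, stood at 249.7 on the IL-27 array and 304.3 on the untreated array, a difference of -0.29. Atp6v1d, part of the central rotor, stood at 702.8 on the IL-27 array and 898.4 on the untreated array, and its 3 probe sets differed by -0.35, -0.38 and -0.06. Atp6v1f, another rotor subunit, differed by -0.15, the regulatory subunit Atp6v1h by -0.07, and the stalk subunit Atp6v1e1 by less than 0.01 in size, with intensities of 367.5 on the IL-27 array and 367.8 on the untreated array. The median of the 6 V1 genes was -0.11.

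In the V0 sector all 4 genes above background were lower, with a median of -0.18. Atp6v0d1, which couples the rotor to the membrane ring, stood at 555.9 on the IL-27 array and 751.4 on the untreated array, and its difference of -0.43 was the largest of the pump. Atp6v0a2, the a subunit of Golgi and endosomal pumps, differed by -0.27, and by -0.48 and -0.09 by its other probe sets. Atp6v0b of the ring and Atp6v0e differed by -0.10 and -0.08. Outside the choice by name, Tcirg1, which encodes the a3 subunit, and the accessory genes Atp6ap1 and Atp6ap2 differed by -0.23, -0.21 and -0.01. By these probe sets all 3 lay within the range of the pump genes. Dimmer probe sets of Atp6ap2 differed by 0.003 and 0.08, the latter above that range.

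Several probe sets above background were available for 17 of the 43 genes, 40 probe sets in all. They lay on 1 side of 0 in 16 of the 17 genes (94.1%), against 69.0% of 2175 such genes on the array, and the SD of a difference among probe sets of 1 gene was 0.14, against 0.21 over all genes. This covers probe-level error only. Of the 4 genes at least 1.5-fold lower, Smpd1, Cd68, Ctsa and Ctsd, none has a second probe set.

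**Figure D3:**
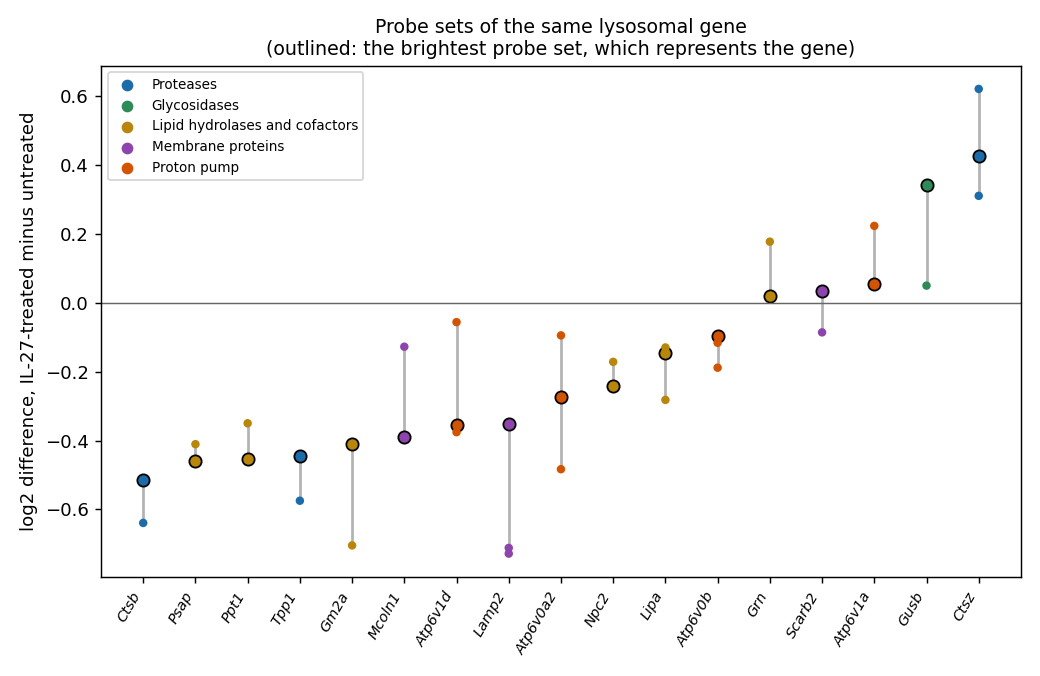
Differences (log2, IL-27-treated minus untreated) of all probe sets above background for the 17 lysosomal genes with more than 1, coloured by role, with the brightest probe set outlined. Probe sets of Ctsb, Psap, Ppt1, Tpp1, Gm2a and Lamp2 all lie below 0 and those of Ctsz all above, and Scarb2 alone straddles 0.

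The differences were also set beside the promoter element shown above. The 13 genes with CACGTG were Ctsa, Ctsd, Ctsl, Lgmn, Gla, Glb1, Lamp1, Mcoln1, Cln3 and the pump genes Atp6v0b, Atp6v0d1, Atp6v0e and Atp6v1a. Of these 13, 10 were lower on the IL-27 array, with a median of -0.34 and a range from -0.97 to 0.31. Of the 23 genes without it, 14 were lower, with a median of -0.15 and a range from -1.14 to 0.55. Of all 709 genes above background with CACGTG, 345 were lower, with a median of 0.01. At least 1.5-fold lower were 2 of the 13 genes, 2 of the 23 and 50 of the 709. These are descriptions of 2 small groups of genes, and whether the element goes with the differences was not tested.

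Related genes outside the choice by name were read from lists of the same pathway. Of 20 measured further hydrolases, 16 were above background, 6 of these were lower and 10 higher by any amount, and the median was 0.03. Acp5, tartrate-resistant acid phosphatase, had intensities of 262.1 on the IL-27 array and 730.8 on the untreated array, 2.79-fold lower. Galc, which degrades galactosylceramide, stood at 33.04 on the IL-27 array and 66.7 on the untreated array, 2.02-fold lower, while its 2 other probe sets were below background on both arrays. The sialic acid esterase gene Siae and the sulfatase gene Galns differed by 0.46 and -0.39. The lower lean of the 43 genes was thus not seen in the count of these further hydrolases, 37.5% of which were lower, against 47.3% of all genes above background. Past 2-fold, 2 of 16 were lower and 0 higher, against 2.75% and 1.53% of all genes above background. Of these 2, Galc was near the floor on the IL-27 array.

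Of 10 further membrane genes above background, 6 were lower, with a median of -0.12. Entpd4, a nucleotidase of Golgi and lysosome-like vesicles, stood at 95.2 on the IL-27 array and 215.7 on the untreated array, 2.27-fold lower, and its other probe set was below background on both arrays. Laptm5, a lysosomal protein of blood cells that promotes degradation of the T cell receptor, differed by -0.67, and by -0.44 by its other probe set. Abcb9, a peptide transporter, differed by -0.64, with -0.81 and -1.01 from its other probe sets. Laptm4b was on the other side at 0.63, with 0.87 and 0.55 from its other probe sets.

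Genes of sorting to the lysosome lay on both sides, with 7 of 13 lower and a median of -0.06. Gnptab, which makes the mannose 6-phosphate tag of lysosomal enzymes, stood at 175.0 on the IL-27 array and 294.7 on the untreated array, a difference of -0.75, with -0.57 from its second probe set. Its dimmest probe set was below background on the IL-27 array, at 16.1, and at 35.3 on the untreated array. M6pr, a receptor for that tag, differed by 0.25 and Vps11, of a complex that tethers vesicles to lysosomes, by -0.28, with 0.15 from a dimmer probe set. Ap3b1, a subunit of the AP-3 adaptor that carries membrane proteins to lysosomes and lytic granules, stood at 730.2 on the IL-27 array and 453.0 on the untreated array, and its 2 probe sets differed by 0.69 and 0.73. Nutrient signalling genes on the lysosomal surface had a median of -0.09 over 8 genes, with the mTORC1 anchor genes Lamtor4 at -0.46, Lamtor1 at -0.30 and Lamtor2 at 0.18 and the folliculin gene Flcn at -0.19. A dimmer probe set of Lamtor2 was below background on both arrays.

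Autophagy genes, which bring cargo to the lysosome, were lower in 12 of the 16 genes above background on both arrays, with a median of -0.27, against 46.7% of all 6434 such genes. Wipi1 was above background on the untreated array alone, so its direction was set by the floor. Bnip3, a receptor for mitophagy, stood at 1515 on the IL-27 array and 3239 on the untreated array, 2.14-fold lower. Gabarapl1 and Gabarap, of the family that coats autophagosomes, differed by -0.74 and -0.49, and Uvrag by -0.48. A lean of this size was not limited to such pathways: the 9 T cell markers had 7 genes lower and a median of -0.24, with Cd5 at -0.69.

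Larger differences were found for some granule proteins and some inhibitors of cathepsins. Ctsw, a cathepsin of cytotoxic lymphocytes that the choice by name did not include, had intensities of 122.4 on the IL-27 array and 971.7 on the untreated array, 7.94-fold lower. The other 4 measured cathepsin genes, Ctsf, Ctsg, Ctsh and Ctsk, were below background on both arrays. Of the granule genes, 3 were above background on both arrays, and all 3 were lower, against 46.7% of all such genes. Nkg7 was 3.08-fold lower, and 2.08% of all such genes were at least 2-fold lower. Gzmb at -0.63 and Srgn at -0.31 lay within the range of the 43 lysosomal genes. Prf1, Gzma and Gzmc were above the floor on the untreated array alone, so that they could only come out lower. By their brightest probe sets Prf1 and Gzma were lower by at least 6.04-fold and at least 1.26-fold, and Gzmc lay at 26.95 on the IL-27 array, just below the floor, and 31.3 on the untreated array. The other probe set of Prf1 was near the floor on both arrays and differed by -0.04. Gzmb, whose product Ctsc activates, thus differed by -0.63 where Ctsc differed by 0.03.

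The list of cathepsin inhibitors lay on both sides. Of its 7 genes above background on both arrays, 2 were lower by 2-fold or more and 0 higher by as much, against 2.08% and 1.09% of all such genes. The list also held the serpin genes Serpinb6a, Serpinb6b and Serpinb9. Serpinb6b and Serpinb9 were among its 3 genes on the higher side. Ctla2a, an inhibitor of cathepsin L, had intensities of 170.1 on the IL-27 array and 2545 on the untreated array, 14.96-fold lower, and the closely related Ctla2b, above background on the untreated array alone, was at least 5.99-fold lower. Probe sets of these 2 genes can pick up each other's transcripts. Cst7, or cystatin F, an inhibitor of cathepsin C, stood at 365.5 on the IL-27 array and 964.4 on the untreated array, 2.64-fold lower, while the serpin gene Serpinb9, an inhibitor of granzyme B, differed by 0.86. The cystatins Cst3 and Cstb, which also inhibit cathepsin L, did not share this size, with Cst3 at 0.39 and Cstb at -0.08, and at -0.35 by its dimmer probe set. Inhibitors of cathepsin L thus lay on both sides, where Ctsl itself differed by -0.34.

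**Figure D4:**
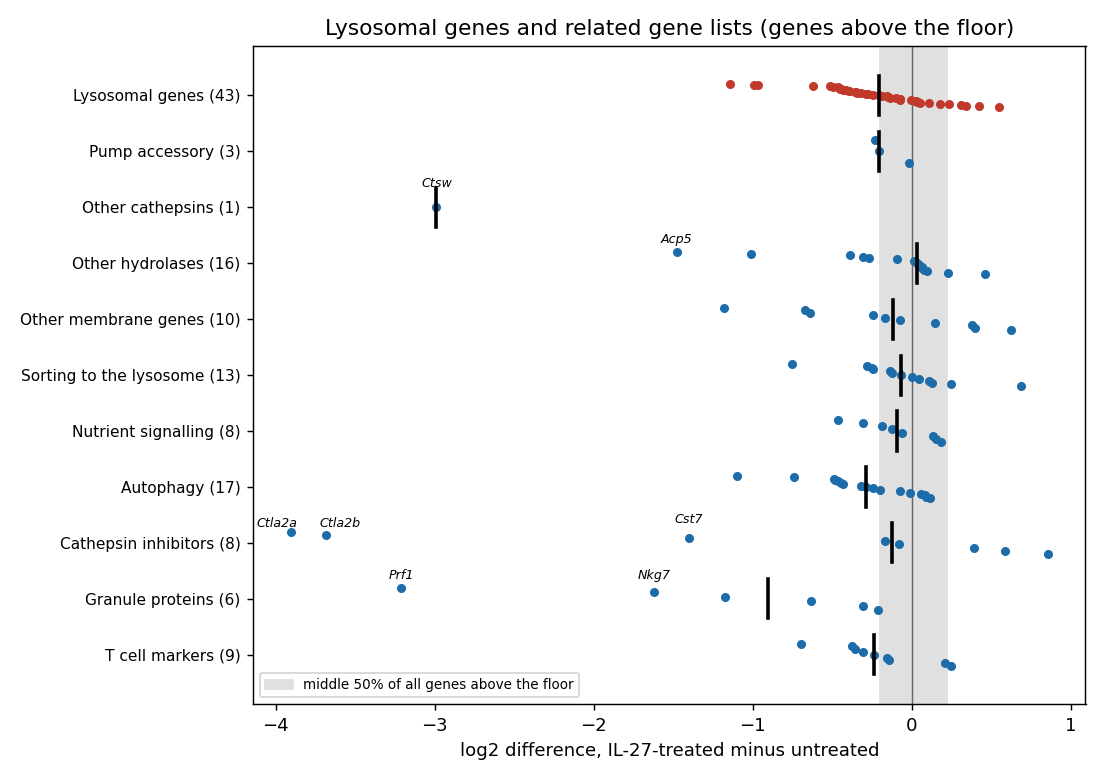
Log2 differences (IL-27-treated minus untreated) of the 43 lysosomal genes (red) and of related lists (blue), genes above background only and their number in brackets, with each list's median as a black bar and the middle 50% of all genes as a grey band. The lysosomal genes lie between -1.14 and 0.55, while Ctsw (-2.99), Ctla2a (-3.90), Ctla2b and Prf1 lie far to the left.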

How the data were processed

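Total RNA (100 ng) from each of the 2 cultures was made into biotinylated cRNA with a 3' IVT kit, which copies RNA from the poly(A) end, per the labels' protocols. The deposited values are linear intensities, 1 for each probe set on each array, made with RMA per the submitters' processing notes. The RMA version is not given in the sources used here. The method makes the distributions of arrays processed together nearly alike (medians of 32.4 for the IL-27 array and 33.3 for the untreated array) and compresses dim differences. Detection calls were not used here.

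Of 22716 probe sets, 18003 had 1 symbol in the platform annotation, 287 several and 4426 none listed. The 50 genes were read by 82 probe sets. Log2 was taken of the intensities as deposited, and folds compare measured values. For a gene under the floor on 1 array, the brighter intensity was divided by the floor to give the least fold. Of each related list, up to 4 genes with the largest absolute difference were named. Further genes of these lists, such as Srgn, Gzmc, Wipi1, Cst3 and Cstb, were named outside that rule. The genes and lists were chosen with earlier results of these data known. Python 3.11.15, pandas 2.3.3 and statsmodels 0.14.6 were used, and the procedure was tested on simulated arrays.

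Alternatives covered the floor, dim values raised to it, subtraction of medians, loess, the choice of probe set and a pseudocount of 16. With 1 array a group, the precision of each difference is limited by that number.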

Additional observations from a re-analysis of the deposited data

How the results depend on the processing

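The median lay between -0.24 and -0.17 under the alternatives that keep all 43 genes and was -0.15 over all 50 measured genes with no floor, and those of the 5 groups kept their sign and moved by less than 0.21, the SD among probe sets of 1 gene, under every alternative run. The membrane median was -0.19 with the 99th percentile floor and without probe sets of the _s_at and _x_at types, where the pump median was -0.21. The counts depended on genes at the limits. With loess 2 genes were at least 2-fold lower, since Ctsa reached -1.004, and with medians subtracted 1 gene, Ctss at 0.59, was at least 1.5-fold higher. With the mean of probe sets 5 rather than 4 genes were at least 1.5-fold lower. The stricter floor planned, the 99th percentile, was set almost alone by a Tg probe set and came to an intensity of 411.0. It kept 23 of the genes, with 0 at least 2-fold and 2 at least 1.5-fold lower, since Smpd1 and Cd68 fell below it, and of the 2465 genes it left, 24 were higher and 74 (3%) lower past 2-fold, against 103 and 185 (2.75%) of 6731, and 100 were higher and 165 (6.69%) lower past 1.5-fold, against 349 and 491 (7.29%). Without Tg, chosen after seeing the data, that floor was 29.1 and the counts of the 43 genes were the same. Of single genes, Cd68 came to -0.70 with the pseudocount, Lamp2 to -0.60 and Gla to -0.23 with the mean of probe sets, and Mcoln1 to -0.13 without probe sets of the _s_at and _x_at types. Signs turned under at least 1 alternative for 5 genes near 0: Ctsc, Fuca1, Grn, Scarb2 and Atp6v1e1. Outside the 43 genes, with the mean of probe sets Prf1 came to -1.62, H2-Ab1 to -1.64 and Entpd4 to -0.46. The signs of Vps11, at 0.11, Lamtor2, at -0.04, and Atp6ap2, at 0.02, turned. Galc and Siae fell below the floor under that setting. No paired analysis was possible because each group has 1 array.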

Other observations

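Among the genes of other tissues that set the background floor, the probe set of Tg, which encodes thyroglobulin, was bright on both arrays, with intensities of 2341 on the IL-27 array and 2199 on the untreated array. The next highest of the 41 genes, Cela1, reached 30.2 on the untreated array.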
